A study of Homo sapiens with 12 samples.

Results

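The 6 genes of the inhibitor of κB (IκB) family were followed through a tumor necrosis factor alpha (TNFα) response in HEK293T cells, a line derived from human embryonic kidney. NFKBIA, NFKBIB and NFKBIE encode the cytoplasmic inhibitors IκBα, IκBβ and IκBε, and NFKBID, NFKBIZ and BCL3 encode the nuclear proteins IκBNS, IκBζ and Bcl-3. They were taken by symbol from the 33121 genes of the count table, and all 6 passed the filter on low counts, which left 14383 genes for testing. The 12 samples formed 4 groups of 3: untreated WT cells, WT cells given 10 ng/ml TNFα for 3 h, untreated NFKB1 S80A cells, and NFKB1 S80A cells given the same TNFα treatment. NFKB1 S80A cells descend from the same line, and CRISPR/Cas9 editing of NFKB1 replaced a serine of the NF-κB p50 subunit with alanine, and the study asked what phosphorylation of that serine does to TNFα-induced transcription. The edited cells were grown from single cells by serial dilution. The sources used here do not give the number of clones behind the 3 samples of a group, so that an effect of the edit and a feature of a clone cannot be told apart. Gene counts do not show the edited codon and so check no genotype label. The 3 samples of a group were generated independently, but nothing says that they came from separate cultures. The p-values of the main gene tests rest on the spread between samples within groups, estimated from all 4 groups together.

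The libraries held 15624878 to 20889577 counts. Replicates differed by more than sampling noise in each group, and the chi-square of their counts divided by the number of genes was 2.90 to 16.3 for all pairs other than those with untreated NFKB1 S80A replicate 2, which stood at 38.2 and 22.4. In treated WT cells the pairs with replicate 3 were at 13.6 and 14.3, against 2.96 for replicates 1 and 2. Of 6 markers of the HEK293T line, all 6 had a mean of at least 1 CPM (read counts scaled to a common library total) in WT cells, whereas 5 did in NFKB1 S80A cells. In the edgeR test KRT18, a keratin gene of that list, was higher in NFKB1 S80A cells by 0.46 on the log2 scale untreated (adjusted p = 0.0210) and 0.60 after TNFα (adjusted p = 0.00471). VIM, which encodes vimentin, rose with TNFα in NFKB1 S80A cells by 0.42 (edgeR adjusted p = 0.0319). The VIM value in WT cells was 0.35 (SE 0.090, edgeR adjusted p = 0.149). The marker below 1 CPM was NEFM, a neurofilament gene, with 1774 to 2165 counts in the 6 WT libraries and 3 to 6 in the 6 NFKB1 S80A libraries. Among markers of blood, immune and endothelial cells, PTPRC and CD3E had 0 counts in every library, PECAM1 had at most 1, CD14 had 2 to 9 and CD68 had 28 to 62.

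IκB proteins bind NF-κB dimers through ankyrin repeats. The cytoplasmic inhibitors hold these dimers out of the nucleus until the IκB kinase complex, activated downstream of the TNFα receptor, marks them for ubiquitination and destruction. NF-κB then enters the nucleus and transcribes NFKBIA among its targets, and newly made IκBα ends the response. Nuclear members instead bind mainly p50 or p52 homodimers on DNA, where they can raise or lower transcription.

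NF-κB binds κB sites in DNA, and the promoters of the IκB genes were searched for the 10-base κB consensus on both strands. The RefSeq (GRCh38.p14) promoters used here were 9 sequences of 5 of the 6 genes, each running from 250 bases before to 50 bases after a transcript start. The NFKBIE promoter was not searched here. A match was present in 7 of the 9 promoters and in all 5 genes searched, whereas 5.909% of all 35116 promoters held one. NFKBIB, NFKBID and NFKBIZ each have more than 1 start in this set, so the 9 promoters are not 9 genes. The 250 bases before the NFKBIA start are shown because NFKBIA had the largest TNFα response of the family, with the match in capitals. They lie at chr14:35404750-35404999 and are written along the minus strand, from which NFKBIA is transcribed.
NFKBIA promoter: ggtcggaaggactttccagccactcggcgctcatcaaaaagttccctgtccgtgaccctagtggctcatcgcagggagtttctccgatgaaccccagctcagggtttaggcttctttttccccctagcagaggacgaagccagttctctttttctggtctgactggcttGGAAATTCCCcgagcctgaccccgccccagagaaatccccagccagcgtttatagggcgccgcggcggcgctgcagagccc

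The matches of the other promoters are shown in 30-base windows along the strand of each gene, for genes called higher with TNFα and for genes not called. Capitals mark the 10 bases of the match, which for NFKBID and BCL3, as for NFKBIA, reads as the consensus on the opposite strand.
NFKBIB start 2: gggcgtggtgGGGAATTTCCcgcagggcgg
NFKBID start 2: agcgcgacccGGGGACTCCCaggcctgtgg
NFKBID start 3: gggctgagcaGGAATTCCCCttgcgcgggg
NFKBIZ start 1: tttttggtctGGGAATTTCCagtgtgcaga
NFKBIZ start 2: gcgcgctgtcGGGGTTTCCCggtgaagggc
BCL3 start 1: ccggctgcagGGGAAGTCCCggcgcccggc

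The same 10 bases, GGGAATTTCC, occurred in NFKBIA, NFKBIB and NFKBIZ. In NFKBIA they lay on the plus strand at chr14:35404821-35404830, from 81 bases before the transcript start and outside annotated transcripts. In NFKBIZ they lay on the gene's plus strand at chr3:101827767-101827776, from 223 bases before start 1 and within a noncoding part of an exon of the neighbouring NXPE3. In NFKBIB they lay on the plus strand at chr19:38899941-38899950, from 28 bases before start 2 and in an intron of 2 transcripts, and a second match overlapped them by 9 bases on the opposite strand. This sequence stood before NFKBIA and NFKBIZ, which were called higher with TNFα. It also stood before start 2 of NFKBIB, whose smaller log2 fold change of 0.22 in WT cells did not pass the edgeR test. The promoter of NFKBIB start 1 held no match. Whether the sequence bears on the response was not tested.

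The BCL3 match, GGGACTTCCC on the minus strand at chr19:44748710-44748719, began 2 bases after the start, in a noncoding part of an exon. NFKBID start 2 held GGGAGTCCCC on the plus strand at chr19:35900623-35900632, in a noncoding part of an exon, and its start 3 held GGGGAATTCC at chr19:35899932-35899941, in an intron. The NFKBIZ start 2 site at chr3:101849275-101849284, in a noncoding part of an exon, matched on both strands. The fifth base of the motif, which the consensus leaves free, was A on at least 1 strand in 5 of the 7 promoters that held a match and in 24.096% of such promoters genome-wide. It was C in BCL3 and G in NFKBID start 2. A match describes the letters in these windows and not binding.

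**Figure D1:**
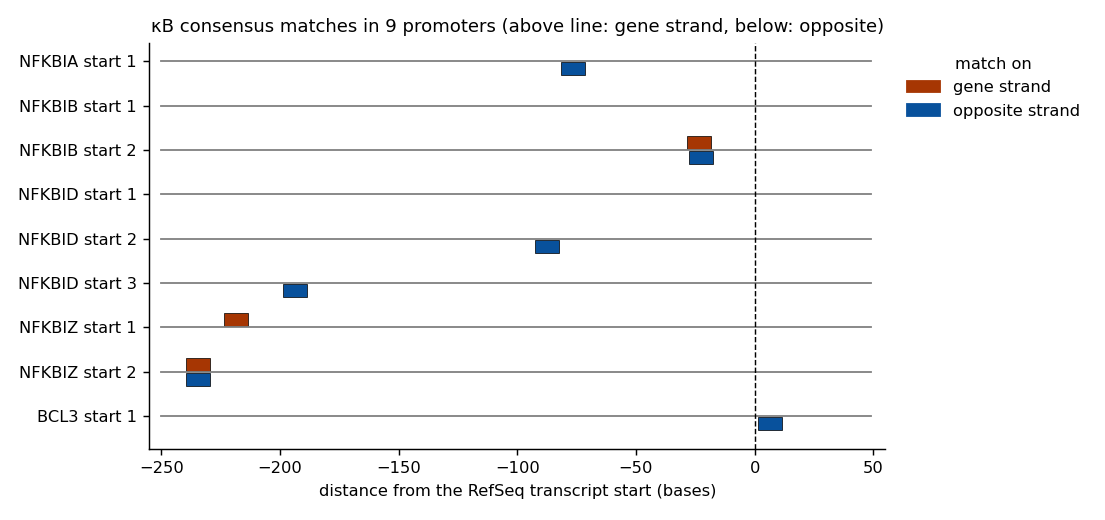
Positions of κB consensus matches in the 9 RefSeq promoters, with the distance from the transcript start in bases on the x axis and 1 line per promoter. Boxes above a line are matches on the strand of the gene and boxes below it matches on the opposite strand; 7 of the 9 promoters hold a match, and the BCL3 match is the one that lies after the start.

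The first question was how the family responded to TNFα in WT cells. NFKBIA, NFKBIZ and BCL3 rose, and NFKBIB, NFKBIE and NFKBID did not pass the threshold of an adjusted p under 0.05. These 3 of 6 members stand against 0.688% of all tested genes called in that comparison, or 0.577% called higher. The median log2 fold change of the 6 genes was 0.91, and that of all tested genes was 0.00. In NFKB1 S80A cells the same 3 genes and NFKBIE rose, 4 of 6 members against 1.26% of all tested genes, or 0.966% called higher, and the median log2 fold change was 0.96. Tests were made with the edgeR quasi-likelihood method with Benjamini-Hochberg adjustment over all tested genes, and levels are normalised read counts (counts scaled to a common library size). In RNA of whole cultures, a change in every cell and a change in some of them cannot be told apart. Both TNFα comparisons and both genotype comparisons use the same 12 samples, so that they share groups.

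Among the cytoplasmic inhibitors, NFKBIA (chr14:35401079-35404749, minus strand) encodes IκBα, the fast-acting inhibitor that closes the NF-κB feedback loop. Its normalised read counts were 426, 434 and 453 in untreated WT cells and 4531, 5165 and 5408 after TNFα. In NFKB1 S80A cells they were 475, 540 and 551 untreated and 6200, 6471 and 7156 after TNFα. Every treated sample stood far above every untreated one in both genotypes, and the 3 treated NFKB1 S80A samples were the highest of the 12. The log2 fold change was 3.52 (SE 0.097, adjusted p = 1.58e-11) in WT cells, an 11.5-fold rise, and 3.66 (SE 0.097, adjusted p = 6.55e-12) in NFKB1 S80A cells, a 12.7-fold rise. By fold, NFKBIA ranked 9 among the 83 genes called higher in WT cells and 12 among the 139 in NFKB1 S80A cells. By the CPM gained, it ranked 1 of all tested genes in WT cells, with 247.9 CPM, and 2 in NFKB1 S80A cells, with 328.3 CPM. NFKBIA thus stood higher in the order by gain in reads than in the order by fold.

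NFKBIB (chr19:38899700-38908893, plus strand) encodes IκBβ, an inhibitor that is destroyed and restored more slowly than IκBα. It had 849, 913 and 930 normalised read counts in untreated WT cells and 979, 1033 and 1127 after TNFα. The NFKB1 S80A samples had 816, 818 and 893 untreated and 990.0, 1021 and 1100.0 after TNFα. Treated samples lay above untreated ones without overlap in both genotypes, but by a small margin. The log2 fold change was 0.22 (95% interval 0.05 to 0.40, adjusted p = 0.601) in WT cells and 0.30 (0.12 to 0.48, adjusted p = 0.139) in NFKB1 S80A cells. Its exons share 40 bases, 1.7% of their length, with SIRT2 on the opposite strand, and whether the counting used strand is not given in the sources used here.

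NFKBIE (chr6:44258166-44265788, minus strand) encodes IκBε, an NF-κB-responsive inhibitor. It had 207, 230 and 241 normalised read counts in untreated WT cells and 263, 319 and 366 after TNFα. NFKB1 S80A samples had 203, 211 and 216 untreated and 293, 326 and 333 after TNFα. The treated samples were the higher ones in both genotypes, and the treated WT samples were the most spread. The log2 fold change was 0.48 (SE 0.12, adjusted p = 0.129) in WT cells and 0.59 (SE 0.12, adjusted p = 0.0256) in NFKB1 S80A cells, a 1.51-fold rise. That call was lost without untreated NFKB1 S80A replicate 2, the library that stood apart (0.60, adjusted p = 0.0517), and without its replicate 3 (adjusted p = 0.132) or treated NFKB1 S80A replicate 1 or 3 (adjusted p = 0.121 and 0.107). Conversely, without treated WT replicate 1 the rise in WT cells passed (log2 fold change 0.60, adjusted p = 0.0445), and the interaction of genotype and TNFα was 0.11 (95% interval -0.26 to 0.48).

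Of the nuclear members, NFKBIZ (chr3:101827991-101861022, plus strand) encodes IκBζ, an inducible coactivator of a subset of late NF-κB targets. It had 88.7, 100.4 and 113.6 normalised read counts in untreated WT cells and 226, 255 and 285 after TNFα. The NFKB1 S80A values were 96.4, 98.5 and 99.2 untreated and 231, 238 and 274 after TNFα. The treated samples of both genotypes occupied the same range, well above the untreated ones. NFKBIZ rose 2.52-fold in WT cells, a log2 fold change of 1.33 (SE 0.13, adjusted p = 4.51e-05), and by the same log2 fold change of 1.33 in NFKB1 S80A cells (SE 0.13, adjusted p = 3.66e-05). It ranked 33 by fold among the 83 genes called higher in WT cells. Its exons share 194 bases, 3.3% of their length, with NXPE3 on the same strand.

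BCL3 (chr19:44747705-44760044, plus strand) encodes Bcl-3, a partner of p50 and p52 homodimers and a proto-oncogene product. It had 10.3, 13.4 and 14.4 normalised read counts in untreated WT cells and 45.0, 48.8 and 50.4 after TNFα. Among NFKB1 S80A samples it had 11.3, 13.2 and 18.5 untreated and 51.9, 58.0 and 70.5 after TNFα. The treated samples stood clear of the untreated ones, and the treated NFKB1 S80A samples were the highest. BCL3 rose 3.74-fold in WT cells (log2 fold change 1.90, SE 0.23, adjusted p = 0.000445) and 4.18-fold in NFKB1 S80A cells (2.06, SE 0.22, adjusted p = 0.0001). It was the family member with the fewest reads, 39 in the 3 untreated WT libraries together (95% Poisson interval 27.7 to 53.3, counting error only).

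NFKBID (chr19:35887653-35902303, minus strand) encodes IκBNS, which in immune cells restrains or supports the transcription of chosen NF-κB targets. It had 73.5, 80.5 and 83.5 normalised read counts in untreated WT cells and 73.7, 76.4 and 80 after TNFα. The values in NFKB1 S80A cells were 58.9, 83.3 and 90.8 untreated and 98.7, 100.3 and 119.3 after TNFα. WT samples with and without TNFα overlapped, while the 3 treated NFKB1 S80A samples were above the other 9. The log2 fold change was -0.05 (95% interval -0.40 to 0.31, adjusted p = 0.997) in WT cells and 0.44 (0.10 to 0.78, adjusted p = 0.349) in NFKB1 S80A cells. The lowest value of 58.9 came from untreated replicate 2, the library that stood apart, and without it the latter log2 fold change was 0.29 (adjusted p = 0.723).

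**Figure D2:**
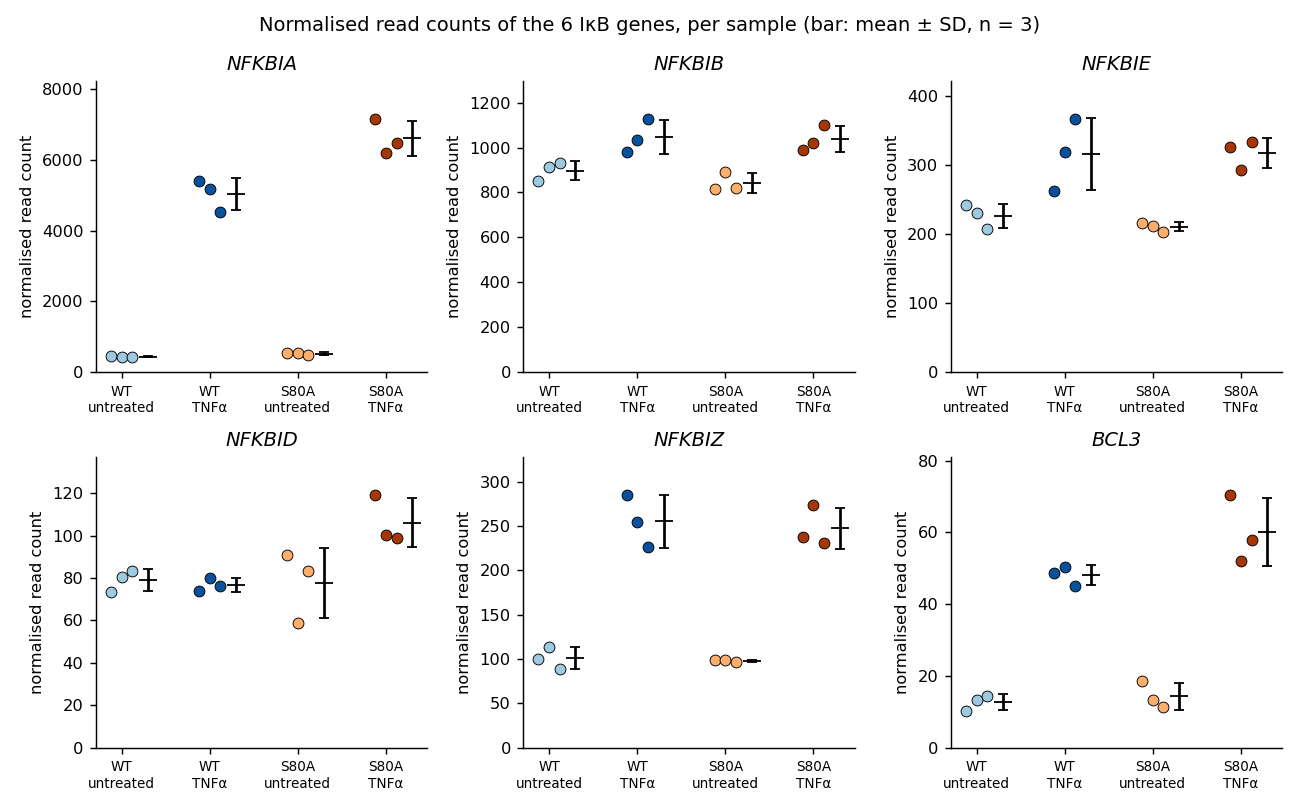
Normalised read counts of the 6 IκB genes in each of the 12 samples, with 1 panel per gene, points for samples, and bars for the mean and SD of 3 samples. NFKBIA goes from 426 to 551 in untreated samples to 4531 to 7156 in treated ones, whereas the NFKBID points of WT cells overlap.

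By the spread of the samples, treated and untreated groups did not overlap for 5 of the 6 genes in WT cells, NFKBID being the exception, against 6.07% of all tested genes that were higher without overlap. In NFKB1 S80A cells all 6 were higher without overlap, against 6.81% of all tested genes. At an unadjusted p under 0.05 the counts were 5 and 6 members, against 5.97% and 9.59% of all tested genes.

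The second question was whether the genotype moved the family. Without TNFα, edgeR called 0 of the 6 genes between the genotypes, against 6.26% of all tested genes (2.05% higher and 4.21% lower), and 1 had an unadjusted p under 0.05, against 19.7%. That gene was NFKBIA, 1.19-fold higher in NFKB1 S80A cells (log2 fold change 0.25, 95% interval 0.05 to 0.45, adjusted p = 0.143), with no overlap between the 3 samples of each genotype, against 11.7% of all tested genes higher without overlap. For the other 5 the log2 fold change ran from -0.11 for NFKBIE to 0.17 for BCL3, with adjusted p from 0.593 to 0.971. The 95% intervals of these differences were -0.27 to 0.08 for NFKBIB, -0.34 to 0.25 for NFKBIZ and -0.44 to 0.77 for BCL3. The BCL3 interval therefore holds both no difference and one of the size estimated for NFKBIA, which was itself not called.

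After TNFα, 1 of the 6 genes differed between the genotypes, against 7.36% of all tested genes called, or 2.92% called higher and 4.44% lower. A count of 1 in 6 genes is too small to set apart from these shares. NFKBIA averaged 5035 ± 453 normalised read counts in WT cells against 6609 ± 493 in NFKB1 S80A cells (SD, n = 3 each). This was a log2 fold change of 0.39 (SE 0.085, 95% interval 0.21 to 0.58, edgeR adjusted p = 0.0128). The higher level was seen in 3 of 3 treated samples. The call was lost without treated NFKB1 S80A replicate 1, which had the highest NFKBIA count (log2 fold change 0.33, edgeR adjusted p = 0.0705). Without treated WT replicate 3, the lowest of the treated WT values, the log2 fold change was likewise 0.33, and the call held (edgeR adjusted p = 0.0285). The genotypes also did not overlap for NFKBID and BCL3, so that 3 members were higher without overlap, against 13% of all tested genes.

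NFKBID averaged 76.7 ± 3.17 normalised read counts in treated WT cells and 106 ± 11.4 in treated NFKB1 S80A cells (SD, n = 3 each). Its difference was 0.47 on the log2 scale (95% interval 0.13 to 0.82, edgeR adjusted p = 0.0933). It passed only in the fit without untreated NFKB1 S80A replicate 2 (0.47, edgeR adjusted p = 0.0376), a library outside this comparison that enters the shared estimate of the spread. For BCL3 the value was 0.33 on the log2 scale (95% interval -0.07 to 0.74, edgeR adjusted p = 0.331), and 0.19 without treated NFKB1 S80A replicate 1 (edgeR adjusted p = 0.682). For NFKBIB, NFKBIE and NFKBIZ the differences were -0.01 (95% interval -0.19 to 0.16), 0.00 (-0.25 to 0.26) and -0.05 (-0.31 to 0.21). The intervals of these 3 genes hold both small rises and small falls.

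For the interaction of genotype and TNFα, edgeR called 0 members and 0 of all tested genes. At an unadjusted p under 0.05 there were 0 members, against 3.62% of all tested genes, and DESeq2 likewise called 0 genes. NFKBID had the largest interaction in the family, a TNFα response 0.49 higher in NFKB1 S80A cells on the log2 scale (95% interval -0.00 to 0.98, unadjusted p = 0.0520, adjusted p = 0.911 in edgeR). NFKBIA was at 0.14 (-0.13 to 0.41) and NFKBIZ at -0.00 (-0.41 to 0.41). The genotype difference of NFKBIA after TNFα is thus not shown to differ from that in untreated cells.

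**Figure D3:**
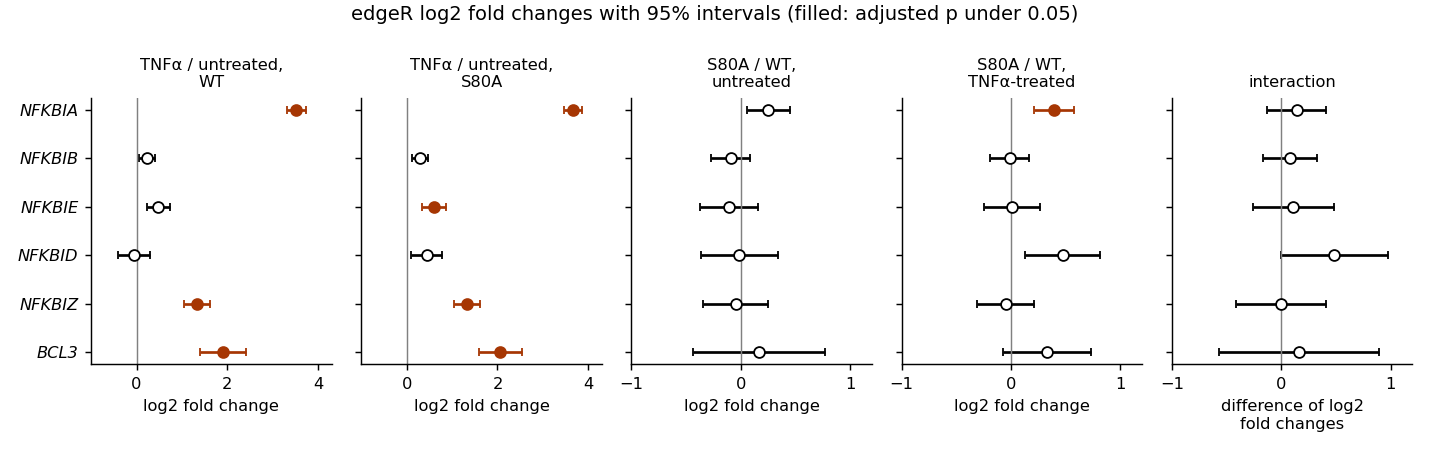
Log2 fold changes of the 6 IκB genes from edgeR in 5 comparisons, with 1 panel per comparison, points for the estimates and bars for 95% intervals. Filled points passed an adjusted p under 0.05, which 3 genes did for TNFα in WT cells, 4 for TNFα in NFKB1 S80A cells, 0 for the genotype in untreated cells, NFKBIA alone for the genotype after TNFα, and 0 for the interaction.

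To compare levels between genes, CPM were divided by the length of the longest annotated transcript, giving CPM per kb. In untreated WT cells NFKBIB was the most abundant at 22.0 ± 1.05 CPM per kb, followed by NFKBIA at 9.22 ± 0.30, NFKBIE at 4.73 ± 0.36, NFKBID at 2.12 ± 0.14, NFKBIZ at 1.39 ± 0.17 and BCL3 at 0.366 ± 0.061 (SD, n = 3). No neighbours in that order overlapped among the 3 samples. The order was the same in untreated NFKB1 S80A cells, where NFKBID ranged from 1.58 to 2.43 and NFKBIZ from 1.33 to 1.36 CPM per kb. After TNFα NFKBIA took the first place, at 106 ± 9.54 CPM per kb in WT cells against 139 ± 10.4 in NFKB1 S80A cells, and NFKBIB followed at 25.6 ± 1.83 and 25.4 ± 1.39. NFKBIZ then stood above NFKBID, at 3.51 ± 0.41 against 2.06 ± 0.085 CPM per kb in WT cells. In treated NFKB1 S80A cells the pair lay closer, at 3.40 ± 0.32 for NFKBIZ and 2.84 ± 0.31 for NFKBID, and their samples overlapped. BCL3 stayed last, at 1.38 ± 0.079 and 1.73 ± 0.27 CPM per kb.

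Summed over the 6 genes, the level was 39.8 ± 0.67 CPM per kb in untreated WT cells and 39.9 ± 1.56 in untreated NFKB1 S80A cells (SD, n = 3). After TNFα it was 145 ± 7.14 in WT cells against 179 ± 10.4 in NFKB1 S80A cells. NFKBIA made up 22.3%, 22.8% and 24.5% of that sum in the untreated WT samples and 69.6%, 73.6% and 75.6% in the treated ones. In NFKB1 S80A cells its share was 26.2%, 28.2% and 28.3% untreated and 76.7%, 77.0% and 79.2% after TNFα. IκB transcripts were therefore mostly NFKBIB before TNFα in WT cells, at 55.2% ± 1.78, and mostly NFKBIA after it. The NFKBIB share fell to 17.7% ± 2.17 in WT cells and to 14.2% ± 1.29 in NFKB1 S80A cells, while its own level went from 22.0 to 25.6 CPM per kb in WT cells. In both conditions the NFKBIA share of the NFKB1 S80A samples lay above that of the WT samples without overlap. The order of the 6 genes was the same with the length of the merged exons and with that of the canonical transcript.

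**Figure D4:**
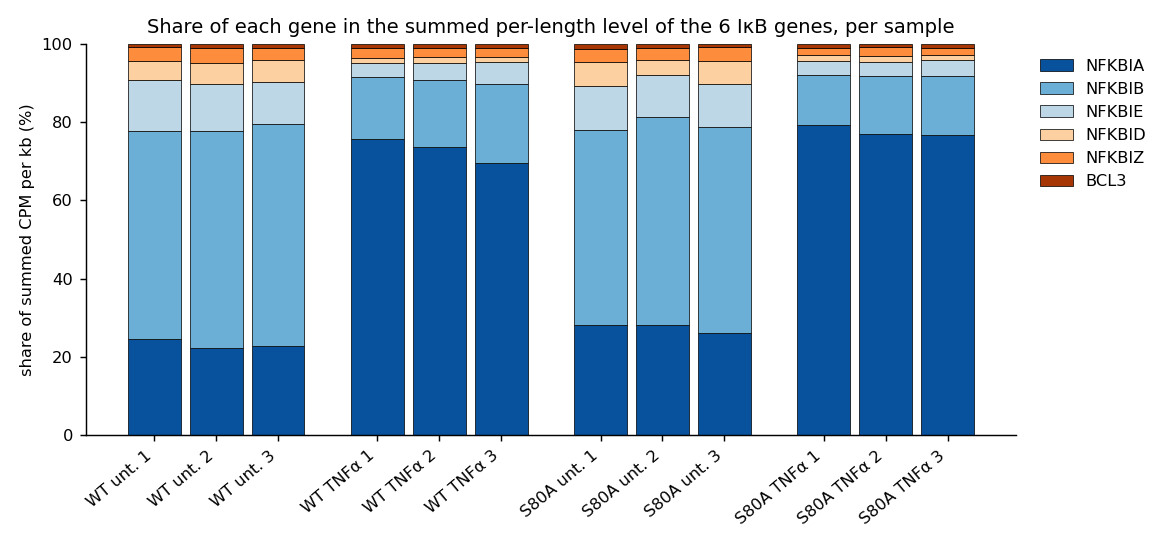
Share of each IκB gene in the summed CPM per kb of the 6 genes, in percent, with 1 stacked bar per sample from 0 to 100%. NFKBIA goes from 22.3% to 28.3% of the sum in the 6 untreated samples to 69.6% to 79.2% in the 6 treated ones.

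Ratios of reads within a library do not depend on how libraries are scaled, so the NFKBIA reads were also set against those of NFKBIB and NFKBIE in the same library. The log2 ratio of NFKBIA to NFKBIB was -1.10, -1.10 and -0.91 in untreated WT samples and -0.78, -0.69 and -0.60 in untreated NFKB1 S80A samples. After TNFα it was 2.01, 2.32 and 2.47 in WT samples and 2.56, 2.60 and 2.85 in NFKB1 S80A samples. NFKB1 S80A samples were above WT samples without overlap in both conditions, by 0.34 untreated and 0.41 after TNFα (two-sided exact permutation test, p = 0.1 each, the smallest that 3 samples against 3 can give). With NFKBIE as the reference gene the difference was 0.36 in untreated cells without overlap (exact permutation p = 0.1). It was 0.38 after TNFα, with overlap (exact permutation p = 0.2). In untreated cells the edgeR log2 fold changes between the genotypes were 0.25 for NFKBIA, -0.09 for NFKBIB and -0.11 for NFKBIE. The untreated ratio differences thus include lower estimates of the reference genes. How often other gene ratios differ without overlap was not computed.

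For the nuclear members NFKBIB served as the reference gene. The log2 ratio of NFKBIZ to NFKBIB after TNFα was -2.04 ± 0.27 in WT samples and -2.07 ± 0.18 in NFKB1 S80A samples (SD, n = 3 each), a difference of -0.03 with overlap. That of NFKBID to NFKBIB was -3.77 ± 0.10 in treated WT samples and -3.29 ± 0.22 in treated NFKB1 S80A samples, higher by 0.48 without overlap (exact permutation p = 0.1). Between treated and untreated samples the NFKBID to NFKBIB log2 ratio differed by -0.27 in WT cells, without overlap (exact permutation p = 0.1), and by 0.17 in NFKB1 S80A cells, with overlap (exact permutation p = 0.7). In WT cells the log2 fold change of NFKBIB itself was 0.22 and that of NFKBID -0.05.

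**Figure D5:**
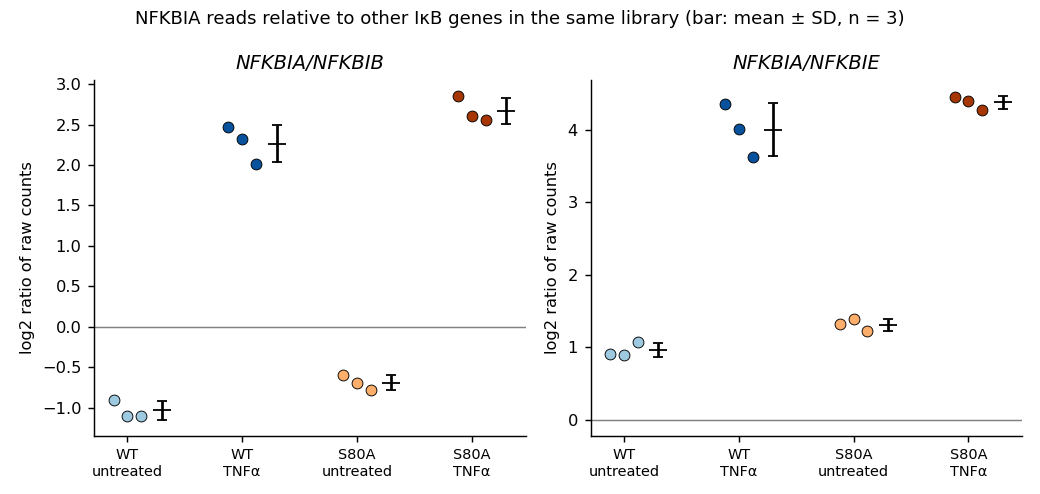
Log2 ratio of raw NFKBIA counts to raw NFKBIB counts (left) and to raw NFKBIE counts (right) in each sample, with bars for the mean and SD of 3 samples. The NFKB1 S80A points lie above the WT points in both conditions on the left, and on the right the treated points of the genotypes overlap.

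The partners of the IκB proteins were described from lists fixed with earlier results of these data known. Of the 5 NF-κB subunits, which IκBs bind, 3 rose with TNFα in WT cells, against 0.688% of all tested genes called. The list median log2 fold change was 1.27, against 0.00 for all tested genes. The 3 genes were RELB (5.15, SE 0.14, adjusted p = 1.58e-11), NFKB2 (2.16, SE 0.086, adjusted p = 1.09e-09) and NFKB1 (1.27, SE 0.10, adjusted p = 4.99e-06). NFKB1 and NFKB2 encode p105 and p100, precursors of p50 and p52 whose own ankyrin repeats act as IκBs. In NFKB1 S80A cells 4 of 5 rose, against 1.26% of all tested genes called. These were the same 3 and RELA (0.36, SE 0.076, adjusted p = 0.0271), which encodes the p65 subunit. The RELA value in WT cells was 0.17 (SE 0.075, edgeR adjusted p = 0.770), and its interaction was 0.19 (edgeR adjusted p = 0.911). REL varied widely, from 43.2 to 164 normalised read counts in untreated NFKB1 S80A samples, and passed in neither genotype. Between the genotypes 0 of 5 were called untreated, against 6.26% of all tested genes, and after TNFα 1 was called, against 7.36%. Such counts in 5 genes are too small to set apart from these shares. The gene called after TNFα was RELB, higher in NFKB1 S80A cells (0.57, SE 0.10, edgeR adjusted p = 0.00401). Its difference in untreated cells was 0.25 (SE 0.20, edgeR adjusted p = 0.585), and its interaction was 0.32 (edgeR adjusted p = 0.911).

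Of the 5 IκB kinase genes, 0 were called for TNFα in WT cells, against 0.688% of all tested genes, and 1 in NFKB1 S80A cells, against 1.26%. That gene was IKBKB, which encodes IKKβ (0.46, SE 0.081, adjusted p = 0.00833). Its value in WT cells was 0.26 (SE 0.081, adjusted p = 0.382), and the interaction was 0.20 (adjusted p = 0.911). Between the genotypes 1 of the 5 was called untreated, against 6.26% of all tested genes, and 2 after TNFα, against 7.36%. Whether counts this small differ from those shares was not tested. IKBKE, which encodes the related kinase IKKε, differed between the genotypes in both conditions. Its counts were 51 to 73 in the 6 WT libraries, and 4, 5 and 19 in untreated and 3, 9 and 22 in treated NFKB1 S80A libraries. It was lower in NFKB1 S80A cells by a log2 fold change of -2.73 (SE 0.43, adjusted p = 0.00181) untreated and -2.17 (SE 0.42, adjusted p = 0.00678) after TNFα. CHUK, which encodes IKKα, was lower in treated NFKB1 S80A cells (-0.35, SE 0.099, adjusted p = 0.0460). Its difference in untreated cells was -0.20 (SE 0.099, edgeR adjusted p = 0.274), and its interaction was -0.15 (edgeR adjusted p = 0.911). As for NEFM, whether the differences in IKBKE and CHUK follow the edit or a clone cannot be told apart.

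None of the 9 genes of the ubiquitin ligase and conjugating enzymes that act on IκBα passed the edgeR test in the 4 comparisons or the interaction, nor did any of 5 genes of other IκB-like or IκB-binding proteins, among them NFKBIL1. The share called of all tested genes was 0.688% to 7.36% in these comparisons and 0% for the interaction, so that 0 calls in lists of 9 and 5 genes is near the background. UBE2D1, a ubiquitin-conjugating enzyme of the former list, was at -0.61 on the log2 scale for the genotype after TNFα (SE 0.23, edgeR adjusted p = 0.138). Of 3 partners of Bcl-3, CYLD, a deubiquitinase for which Bcl-3 is a known substrate, rose with TNFα in both genotypes (log2 fold change 0.61, adjusted p = 0.000784 in WT cells, and 0.48, adjusted p = 0.00501 in NFKB1 S80A cells). Of 9 genes reported to depend on nuclear IκBs, CCND1 alone had enough reads to be tested and was not called. LCN2, CSF2, DEFB4A and IL10 had 0 counts in all 12 libraries, and IL6, IL12B, CSF3 and CCL20 had at most 8.

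Across the 12 samples, log2 CPM of the family members were set against those of 13058 genes with a mean of at least 1 CPM, as a description over samples that share the TNFα contrast. The patterns most like NFKBIA were those of RELB (Pearson r = 0.998), NFKB2 (0.997) and SDC4 (0.997). IER3 (0.984), NFKBIA (0.979) and NDNF (0.975) were most like NFKBIZ. RQCD1 (0.989), SDC4 (0.989) and BTG2 (0.987) were most like BCL3. The other members had lower values, led by ABCF1 for NFKBIB (0.936), ZNF3 for NFKBIE (0.931) and CRTC1 for NFKBID (0.931). Within the family, NFKBIA and BCL3 were at 0.984 and NFKBIB and NFKBID at 0.254.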

How the data were processed

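RNA of 12 HEK293T samples was sequenced after poly(A) selection. The authors aligned reads to GRCh38 with HISAT and used HTSeq-count to assign them to genes, and they deposited raw counts by gene symbol. Versions and the strand setting are not given in the sources used here, and 2 further tables held the authors' own comparisons and were not used. Left out were 28 genes whose symbols had become dates (at most 0.233% of counts), and 33093 were kept. The 6 members and all lists were chosen with earlier results of these data known. Counts were analysed with edgeR 4.0.16 in R 4.3.3 (filterByExpr, minimum count 10, TMM, quasi-likelihood, 4 group means, 12 samples). SEs are log2 fold changes divided by the square root of F. The gene tests alone were run on simulated counts, with changes placed only in treated WT cells. The text names the 6 members, list genes that passed the threshold (also of the HEK293T markers), and the 3 genes most like each member by Pearson r (log2 CPM, prior count 2), of which the first is given for NFKBIB, NFKBIE and NFKBID. Genes named for being at or near 0 counts, NEFM, REL, NFKBIL1, UBE2D1, CCND1, SIRT2 and NXPE3 were chosen after their values were seen. Positions came from GENCODE for GRCh38, and sequences from RefSeq. Alternatives were DESeq2 1.42.0, DESeq2 size factors, total counts, other filters, a replicate block, fits to 6 samples, and each sample left out. Library totals ran from 15624878 to 20889577 counts, and Poisson intervals cover counting error only. A marker gene of the lists is not reported here.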

Additional observations from a re-analysis of the deposited data

How the results depend on the processing

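The TNFα calls of NFKBIA, NFKBIZ and BCL3 held in both genotypes under all 7 alternatives of test, scaling, filter, block and samples and in all 12 fits that left out 1 sample. The log2 fold changes of NFKBIA ran from 3.47 to 3.59 in WT cells and from 3.60 to 3.71 in NFKB1 S80A cells with samples left out. The higher NFKBIA level of treated NFKB1 S80A cells held under the same 7 alternatives and in 11 of the 12 fits, and no log2 fold change of a called gene changed sign. NFKBIE rose in WT cells with DESeq2 (adjusted p = 0.0498), as did NFKBIB in NFKB1 S80A cells (adjusted p = 0.0425), while the NFKBIE call in NFKB1 S80A cells was lost in a fit to only the 6 samples compared (adjusted p = 0.0806). The cause was not tested.

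Of all tested genes, those called for TNFα in WT cells numbered 99 (154 with DESeq2, and 65 to 145 with samples left out). For TNFα in NFKB1 S80A cells they numbered 181 (71 in a fit to the 6 samples compared, which has fewer samples, and 98 to 193 with samples left out). For the genotype they numbered 900 in untreated cells (456 in the fit to 6 samples, and 356 to 1039 with samples left out) and 1058 after TNFα (434 to 1646 with samples left out). The family members called for the genotype after TNFα were 0 to 2 with samples left out.

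The replicate numbers were not taken as a pairing. Of 18 same-numbered pairs, 9 correlated at over 0.1 (range -0.099 to 0.495), with a mean of 0.118 against -0.059 for pairs of different numbers. Of 12 samples, 6 correlated best with their own number. Pairs of replicate 1 were all positive, from 0.116 to 0.495. Those of replicate 2 ran from -0.069 to 0.15 and those of replicate 3 from -0.099 to 0.241. The highest pair of different numbers was at 0.445. Replicate 1 thus stood apart from the other numbers, and the values do not settle whether same-numbered samples belong together. Adding a replicate block left the counts of called family members unchanged at 3, 4, 0, 1 and 0, and gave 113, 208, 1232, 1469 and 0 of all genes, for TNFα in WT and NFKB1 S80A cells, the genotype untreated and after TNFα, and the interaction. A match to a looser κB consensus was present in 8 of the 9 promoters and in 17.397% of all promoters, and a 1200-base window gave 8 of 9 and 19.288%. A planned comparison of the protein sequences was not run. The depth limits NFKBID and BCL3 most, with 49 to 132 and 10 to 78 counts per library.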
